A study of Sus scrofa with 12 samples.

Results

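The genes described here are the immediate early response genes FOS, FOSB, JUN, JUNB, EGR1, ATF3, KLF6, NR4A1, DUSP1 and IER2, found by name. Of the 10 genes listed, 9 were found by name among the 20674 genes of the endometrial count table, and these 9 were all among the 15351 genes that passed the filter on low counts. NR4A1, which encodes an orphan nuclear receptor, had no row under that name and was not analysed here. The pig RefSeq table places an NR4A1 entry classed as a pseudogene on chromosome 5 at 17403088 to 17407918.

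Immediate early genes are the first genes that a cell transcribes after a growth factor, hormone, cytokine or mechanical stimulus, and they need no new protein for this. Kinases such as ERK, JNK and p38 switch on factors already bound at their promoters, and the transcripts are made and degraded quickly. Most of the proteins are transcription factors that carry the signal to later genes, and in the uterus they are known to respond to steroid hormones, stretch and tissue handling.

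RNA was measured in endometrium of Landrace × Yorkshire sows after 114 days of feeding from breeding through gestation. The sows ate 1 of 4 diets. L − N was the low-fiber diet with 3.73% crude fiber and without N-carbamylglutamate (NCG), a compound that activates the first enzyme of the urea cycle and raises arginine synthesis. L + N was the same diet with 0.05% NCG. H − N held 7.46% crude fiber, from soybean bran and beet pulp in place of part of the corn, without NCG, and H + N held 7.46% crude fiber with 0.05% NCG. Each group had 3 libraries, 12 in all. No label says that the numbered libraries of a group came from separate sows, so the p-values measure the spread between libraries, which may be partly technical.

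Library totals lay between 14369781 and 19309724 counted reads, and replicates of a group differed by far more than counting error, with a chi-square per gene of 22.8 to 98.6 where counting alone gives 1. All 10 stromal and all 8 epithelial markers of endometrium were detected, with summed levels of 22117 to 50174 and 1031 to 2345 CPM (read counts scaled to a common library size), while 7 placental markers summed to 1.07 to 3.38 CPM with PAG6 and CYP19A1 at 0 in every library. Some libraries stood apart in other cell type markers. L − N replicate 1 had a summed smooth muscle marker level of 5393 CPM against 848 to 2070 CPM in the other 11 libraries, and H − N replicate 3 had a summed neutrophil marker level of 554 CPM against 7.91 to 277 CPM elsewhere. Values without H − N replicate 3 or L − N replicate 1 are given below where the difference was large. In bulk tissue, fewer cells of a type and less RNA per cell cannot be told apart.

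The 9 genes were compact on the Sscrofa11.1 assembly. Their median span was 4474 bp against 27239 bp for all genes tested, and 8 of 9 spanned under 10 kb, as did 23.1% of all genes tested. FOS (chr7:98449508-98451971, plus strand), FOSB (chr6:51836780-51844531, plus) and the JUN family genes JUN (chr6:153686425-153687635, plus) and JUNB (chr2:66214086-66219435, minus) encode subunits of the dimeric transcription factor AP-1. ATF3 (chr9:130772259-130829678, minus), a stress-induced factor that pairs with JUN proteins, was the longest with 57420 bp. EGR1 (chr2:140440829-140445302, plus) and KLF6 (chr10:66488445-66497830, plus) encode zinc finger transcription factors. DUSP1 (chr16:51457924-51461095, plus) encodes a phosphatase that switches off MAP kinases. IER2 (chr2:65909638-65912491, minus), a nuclear protein gene, lay 301594 bp from JUNB. None of the 9 overlapped another gene of the table.

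The deposited annotation gave KEGG pathways for 6 of the 9 genes. FOS, FOSB, JUN and JUNB shared the osteoclast differentiation pathway, which held 114 of the genes tested. FOS, JUN and DUSP1 were in MAPK signaling (262 genes), FOS, FOSB and JUN in IL-17 signaling (76 genes), and FOS, JUN and JUNB in TNF signaling (101 genes).

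Per length of transcript, JUN was the most abundant of the genes, with a mean level of 98.4 FPKM (counted fragments scaled to transcript length and library total) over the 12 libraries. KLF6 at 41.9 and DUSP1 at 41.4 FPKM were next, followed by FOS at 25.9, EGR1 at 19.7, ATF3 at 14.6, IER2 at 14.0 and JUNB at 6.45 FPKM. FOSB was the rarest at 1.27 FPKM, and its lowest library held 21 reads. The counted length of FOS was 1143 bp, 46.4% of its span and a multiple of 3, so its value was taken as one per coding length. JUN was counted over 1211 bp and JUNB over 5350 bp, each 100% of its span, so this order depends on the annotated lengths. By reads, KLF6 was above JUN, with a mean log2 CPM of 7.34 against 6.86.

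In CPM, H − N had the lowest group mean for 8 of the 9 genes, with IER2 lowest in L + N. L − N had the highest group mean for 7, and DUSP1 and IER2 were highest in H + N. Over all 4 groups, the edgeR quasi-likelihood test found a difference at a Benjamini-Hochberg adjusted p under 0.05 for 3 of 9 genes, beside 6.96% of all genes tested. Counts of the 9 genes with all libraries are set here beside the share of all 15351 genes tested that met the same criterion. These were KLF6 (adjusted p = 0.0262), FOSB (adjusted p = 0.0295) and EGR1 (adjusted p = 0.0375). DESeq2 and limma voom each added ATF3 and JUN, giving 5 genes, beside 21.9% and 26.7% of all genes. The edgeR number fell to 0 of 9 when L − N replicate 3, L + N replicate 2 or L + N replicate 3 was left out.

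**Figure D1:**
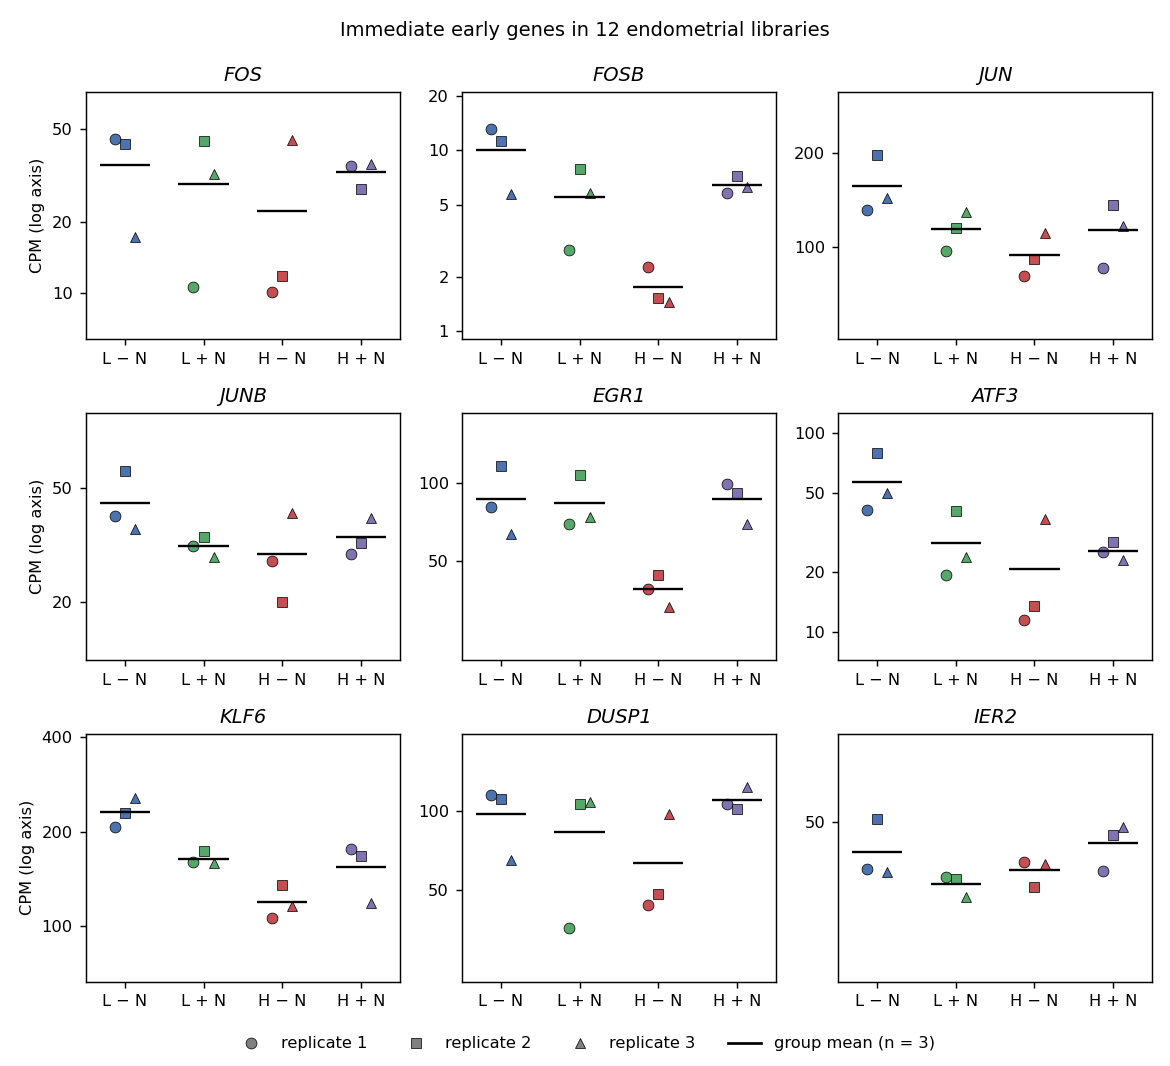
Level of each gene in CPM (vertical log axis) in the 12 libraries, by group on the horizontal axis, with 1 symbol per replicate number and a bar at the mean of 3 libraries. FOSB and EGR1 are lowest in all 3 H − N libraries, while the H − N libraries of FOS are spread from 10.1 to 45.0 CPM.

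The question of fiber without NCG was addressed by H − N against L − N. A gene was counted as past both thresholds at an adjusted p under 0.05 with an absolute log2 fold change above 1. FOSB and EGR1 fell in H − N, and KLF6 fell by slightly less than 2-fold. JUN and ATF3 were below L − N in every H − N library without passing the adjusted threshold, and FOS, JUNB, DUSP1 and IER2 overlapped between the groups.

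FOSB measured 13.2, 11.2 and 5.78 CPM in L − N replicates 1, 2 and 3 and 2.28, 1.53 and 1.45 CPM in H − N. Every H − N library was below every L − N library, and also below every L + N and H + N library. The mean was 10.1 ± 3.84 CPM in L − N and 1.75 ± 0.459 CPM in H − N (SD, n = 3 each). FOSB thus reached 0.176 of its L − N level, a log2 fold change of −2.51 (SE 0.421, edgeR, adjusted p = 0.0192).

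EGR1, which is induced through serum response factor, measured 81.1, 116 and 63.9 CPM in L − N and 39.3, 44.5 and 33.5 CPM in H − N. All 3 H − N libraries were again lower than all other 9 libraries. Its mean was 86.9 ± 26.4 CPM in L − N and 39.1 ± 5.54 CPM in H − N (SD, n = 3 each). The log2 fold change was −1.15 (SE 0.240, edgeR, adjusted p = 0.0279).

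KLF6 measured 208, 230.3 and 256 CPM in L − N and 107, 135 and 116 CPM in H − N. Its groups were far apart for their spread, with means of 232 ± 24.1 and 119 ± 14.5 CPM (SD, n = 3 each). The log2 fold change was −0.96 (SE 0.156, edgeR, adjusted p = 0.0186), past the threshold on p and just short of the threshold of 1 on the fold.

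ATF3 measured 41.2, 79.4 and 50.1 CPM in L − N and 11.5, 13.5 and 37.1 CPM in H − N. The third H − N library lay close to L − N replicate 1, and the other two were far below. The log2 fold change was −1.46 (SE 0.436, edgeR, adjusted p = 0.0741), and −2.19 without H − N replicate 3 (edgeR, adjusted p = 0.0315). DESeq2 (−1.48, adjusted p = 0.0102) and limma voom (−1.91, adjusted p = 0.00733) passed ATF3 with all libraries.

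JUN measured 132, 196 and 144 CPM in L − N and 81.1, 91.5 and 111 CPM in H − N, which did not overlap. Its log2 fold change was −0.74 (SE 0.205, edgeR, adjusted p = 0.0619), and −0.87 without H − N replicate 3. JUNB, the more weakly activating JUN protein, measured 40.0, 57.4 and 36.0 CPM in L − N and 27.7, 19.9 and 40.8 CPM in H − N. Here H − N replicate 3 lay inside the L − N range, and the log2 fold change was −0.59 (SE 0.248, edgeR, adjusted p = 0.168), or −0.90 without that library.

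FOS measured 45.1, 43.2 and 17.3 CPM in L − N and 10.1, 11.7 and 45.0 CPM in H − N. Each group held both high and low libraries, and the log2 fold change of −0.66 was about as large as its error (SE 0.614, edgeR, adjusted p = 0.542). Without H − N replicate 3 it was −1.69 (edgeR, adjusted p = 0.123). DUSP1 measured 115, 111 and 65.0 CPM in L − N and 43.8, 48.3 and 96.9 CPM in H − N, with the same library high. The log2 fold change of DUSP1 was −0.62 (SE 0.409, edgeR, adjusted p = 0.372), and −1.08 without H − N replicate 3. IER2 varied least, from 33.0 to 50.8 CPM over all 12 libraries, and its log2 fold change was −0.15 (SE 0.143, edgeR, adjusted p = 0.555).

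In all, 2 of 9 genes passed both thresholds in H − N against L − N, both lower, beside 2.91% of all genes tested (2.01% lower). On the adjusted p alone 3 of 9 passed, beside 5.27%, and at an unadjusted p under 0.05 6 of 9 were lower, beside 13.1%. The groups did not overlap for 5 of 9 genes, all lower, beside 12.7% of all genes. DESeq2 passed FOSB, EGR1 and ATF3, beside 5.95% of all genes, and limma voom passed FOSB and ATF3, beside 7.79%, with EGR1 at −0.92.

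These calls rested on single libraries. No gene passed both thresholds without L − N replicate 3, where FOSB was at −2.79 (edgeR, adjusted p = 0.053) and EGR1 at −1.33 (edgeR, adjusted p = 0.0836). None passed without H − N replicate 1 either, where FOSB was at −2.75 (edgeR, adjusted p = 0.058) and EGR1 at −1.16 (edgeR, adjusted p = 0.0788). Of all genes tested, 6 passed in the first of these fits and 0 in the second. EGR1 alone was also lost without L − N replicate 2 (−0.89), H − N replicate 2 (edgeR, adjusted p = 0.0509) or H − N replicate 3 (edgeR, adjusted p = 0.0788). Without L − N replicate 1, the library rich in smooth muscle markers, 4 genes passed, namely FOSB, EGR1, ATF3 and KLF6, as did 1120 of all genes against 446 with every library. The log2 fold change stayed between −2.79 and −2.26 for FOSB, −1.33 and −0.89 for EGR1, and −1.06 and −0.88 for KLF6 over the 12 fits that each lacked 1 library.

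All 7 macrophage markers were also lower in H − N, and 5 of 7 passed both edgeR thresholds (C1QA, CD68, CD14, CSF1R and CD163). Their summed level was 778, 2053 and 2078 CPM in L − N replicates 1, 2 and 3. It was 588 to 869 CPM in L + N, 394 to 579 CPM in H − N and 597 to 758 CPM in H + N, and no defining marker was at 0. In L − N replicates 1, 2 and 3, FOSB measured 13.2, 11.2 and 5.78 CPM and EGR1 81.1, 116 and 63.9 CPM. KLF6 measured 208, 230.3 and 256 CPM in these libraries. Smooth muscle markers were lower in 7 of 7, with 4 at an unadjusted p under 0.05, 0 past both thresholds by edgeR or limma voom and 2 by DESeq2, and summed to 1655 to 5393 CPM in L − N and 848 to 1630 CPM in H − N. Epithelial markers were higher in 7 of 8, 4 at an unadjusted p under 0.05, and summed to 1031 to 1464 CPM in L − N and 1556 to 2345 CPM in H − N. Stromal markers were higher in 7 of 10, 5 at that level, with VIM lower past both edgeR thresholds. Neutrophil markers were higher in 6 of 6, 2 at that level. They summed to 12.8 to 64.8 CPM in L − N. In H − N replicates 1, 2 and 3 they summed to 17.6, 8.74 and 554 CPM. Erythroid and platelet markers were lower in 4 of 4 and endothelial markers in 6 of 7, 3 of each at an unadjusted p under 0.05. The part of any of these cells in the lower levels of FOSB, EGR1 and KLF6 was not tested.

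**Figure D2:**
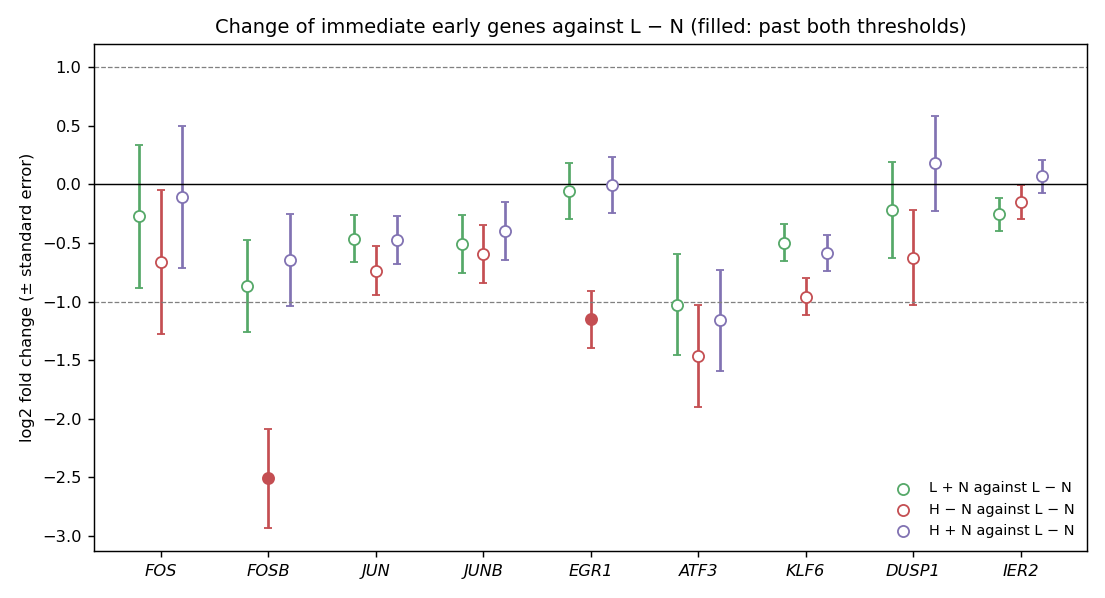
Log2 fold change against L − N (points) with its standard error (bars) from the edgeR fit for each gene, in L + N, H − N and H + N, with filled points past both thresholds and dashed lines at 1 and −1. The 2 filled points are FOSB at −2.51 and EGR1 at −1.15 in H − N, and the 3 comparisons share their L − N libraries.

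NCG on the high-fiber diet was examined as H + N against H − N, which reuses the H − N libraries of the comparison with L − N. All 9 genes were higher in H + N by the edgeR fit, most of all FOSB and EGR1, but 0 of 9 passed the adjusted threshold, as did 0 of all 15351 genes tested (0%), 1331 of them at an unadjusted p under 0.05. The median log2 fold change of the 9 genes was 0.37, against 0.01 for all genes tested, of which 49.0% were lower. At an unadjusted p under 0.05, FOSB, EGR1 and KLF6 were higher, 3 of 9 genes, beside 5.35% of all genes.

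FOSB measured 5.80, 7.22 and 6.25 CPM in the H + N replicates, above all 3 H − N libraries and with a mean of 6.43 ± 0.728 CPM (SD, n = 3). The level in H + N was 3.64 times that in H − N, a log2 fold change of 1.86 (SE 0.416, edgeR, adjusted p = 0.451). EGR1 measured 98.6, 91.4 and 69.5 CPM in H + N, with a mean of 86.5 ± 15.1 CPM (SD, n = 3), close to the L − N mean and 2.21 times the H − N level. Its log2 fold change was 1.15 (SE 0.240, edgeR, adjusted p = 0.451). DESeq2 passed these 2 genes, with 1.87 for FOSB (adjusted p = 0.0153) and 1.15 for EGR1 (adjusted p = 0.0103), beside 0.163% of all genes, while limma voom passed 0 genes.

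For DUSP1, the H + N libraries at 106, 101 and 123 CPM also lay above every H − N library, with a log2 fold change of 0.80 (SE 0.410, edgeR, adjusted p = 0.600), and 1.26 without H − N replicate 3. No overlap in this direction was seen for 3 of 9 genes (FOSB, EGR1 and DUSP1), beside 7.82% of all genes. FOS at 34.7, 27.7 and 35.6 CPM was even across H + N, and its log2 fold change was 0.55 with all libraries and 1.58 without H − N replicate 3. The rest ran from 0.19 for JUNB to 0.37 for KLF6, and JUNB turned to −0.02 without H − N replicate 2. ATF3, at 0.30 among them, was at 0.01 without H − N replicate 1 and at 1.03 without H − N replicate 3. Of the cell type markers, 8 of 8 epithelial and 6 of 6 neutrophil genes were lower in H + N, 4 of each at an unadjusted p under 0.05, and 7 of 7 macrophage genes were higher, 1 of them at that level. The neutrophil markers summed to 554 CPM in H − N replicate 3. In H − N replicates 1 and 2 they summed to 17.6 and 8.74 CPM, inside the H + N range of 7.91 to 26.6 CPM. By edgeR none of these markers passed both thresholds, and their part was not tested.

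**Figure D3:**
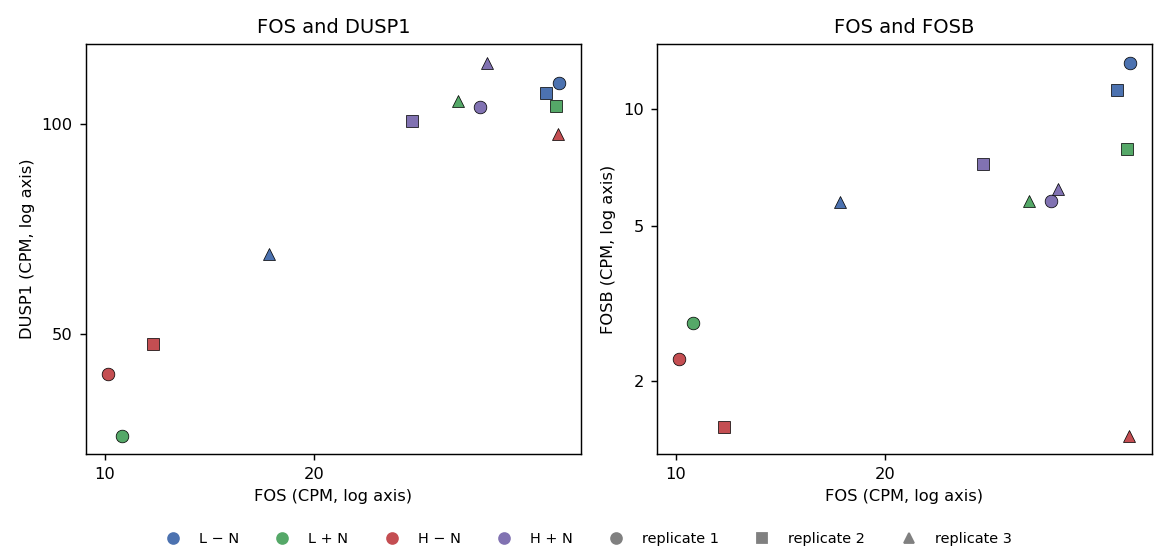
Level of DUSP1 (left) and FOSB (right) against FOS, in CPM on log axes, with 1 point for each of the 12 libraries, colored by group and shaped by replicate number. DUSP1 follows FOS in all libraries, whereas H − N replicate 3 has 45.0 CPM of FOS with 1.45 CPM of FOSB.

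The interaction asked whether the difference made by NCG changed with fiber, and it rests on the same libraries as the comparisons above. It was above 0 for all 9 genes, with a median of 0.87 on the log2 scale against −0.01 for all genes tested. FOSB had 2.73 (SE 0.571, edgeR, adjusted p = 0.253), EGR1 1.20 (SE 0.335, edgeR, adjusted p = 0.257) and KLF6 0.87 (SE 0.2197, edgeR, adjusted p = 0.255). By edgeR 0 of the 9 genes passed the adjusted threshold, as did 0 of all genes tested (0%). At an unadjusted p under 0.05, 5 of 9 genes were above 0 (FOSB, EGR1, KLF6, JUN and IER2), beside 7.48% of all genes. DESeq2 passed FOSB (2.74, adjusted p = 0.00219) and EGR1 (1.21, adjusted p = 0.0455), beside 1.20% of all genes, and limma voom passed 0 of 9, beside 0.873%. The values of the other genes were 1.33 for ATF3, 1.03 for DUSP1, 0.83 for FOS, 0.72 for JUN, 0.70 for JUNB and 0.47 for IER2. With 1 library left out, the interaction of FOS ran from 0.42 to 1.86, that of DUSP1 from 0.65 to 1.48 and that of ATF3 from 1.01 to 2.06. All 3 were highest without H − N replicate 3, FOS and DUSP1 lowest without L + N replicate 1, and ATF3 lowest without L − N replicate 2, where JUNB was at 0.47. All 7 macrophage markers were also above 0 in the interaction, each at an unadjusted p under 0.05. The 7 smooth muscle markers (4 at an unadjusted p under 0.05) and the 7 endothelial markers (3) were above 0 as well, while the 8 epithelial (5) and the 6 neutrophil markers (4) were below 0. The summed neutrophil level differed widely within groups, from 8.74 to 554 CPM in H − N and from 14.5 to 277 CPM in L + N. Erythroid and platelet markers were above 0 in 4 of 4, 3 at an unadjusted p under 0.05. None of these markers passed both edgeR thresholds, and their part was not tested.

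NCG on the low-fiber diet was examined as L + N against L − N. The 9 genes were all lower in L + N by edgeR, with a median log2 fold change of −0.46 against −0.02 for all genes, but 0 of 9 passed both thresholds, beside 3.99% of all genes. EGR1 did not keep this direction, with −0.06 by edgeR and 0.06 by limma voom, and without L + N replicate 1 FOS was at 0.14 and DUSP1 at 0.16. At an unadjusted p under 0.05, 4 of 9 were lower (FOSB, JUN, ATF3 and KLF6), beside 13.7% of all genes. The groups did not overlap for 5 of 9 genes (JUN, JUNB, ATF3, KLF6 and IER2), all lower in L + N, beside 17.2%.

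ATF3 measured 19.2, 40.8 and 23.9 CPM in L + N, just below the lowest L − N library at 41.2 CPM, with a log2 fold change of −1.03 (SE 0.430, edgeR, adjusted p = 0.148). It passed with limma voom (−1.14, adjusted p = 0.0131), beside 8.91% of all genes, and DESeq2 passed 0 of 9, beside 5.75%. KLF6 was very even in L + N at 159.9, 174 and 159 CPM, all below L − N. Its log2 fold change was −0.50 (SE 0.155, edgeR, adjusted p = 0.0665). FOSB in L + N ranged from 2.81 to 7.92 CPM and overlapped L − N, with −0.87 (SE 0.393, edgeR, adjusted p = 0.177). The remaining values were −0.46 for JUN, −0.51 for JUNB, −0.26 for IER2, −0.27 for FOS and −0.22 for DUSP1. Without L − N replicate 2, JUN was at −0.27, JUNB at −0.28 and IER2 at −0.11. Of the 7 macrophage markers, 7 were lower in L + N and CD14 and CD163 passed both edgeR thresholds. The 7 smooth muscle markers were lower too, each at an unadjusted p under 0.05, with TAGLN and ACTA2 past both edgeR thresholds and a summed level of 1047 to 1271 CPM in L + N. So were the 7 endothelial markers, 5 at an unadjusted p under 0.05 and PECAM1 past both thresholds, which summed to 1137 to 1642 CPM in L − N and 792 to 976 CPM in L + N. Of the 10 stromal markers, 8 were higher and 2 lower, with HOXA10 higher past both edgeR thresholds. Erythroid and platelet markers were lower in 4 of 4, with AHSP past both thresholds. The part of any of these cells was not tested.

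Fiber and NCG together were examined as H + N against L − N. By edgeR 0 of 9 genes passed both thresholds, beside 3.58% of all genes, and KLF6 passed on the adjusted p alone, beside 7.97%. At an unadjusted p under 0.05, 3 of 9 genes were lower (JUN, ATF3 and KLF6), beside 12.9%. KLF6 measured 176, 168 and 119 CPM in H + N, a log2 fold change of −0.58 (SE 0.155, edgeR, adjusted p = 0.0443). This call of KLF6 was lost with the replicate number as a block (edgeR, adjusted p = 0.0626) and in 9 of the 12 fits that lacked 1 library. The adjusted p was highest without L − N replicate 3 (−0.51, edgeR, adjusted p = 0.152), and the log2 fold change was weakest without H + N replicate 3 (−0.43). ATF3 measured 25.1, 28.3 and 22.9 CPM in H + N and did not overlap L − N. The log2 fold change of ATF3 was −1.16 (SE 0.431, edgeR, adjusted p = 0.111), which passed without H − N replicate 3, with DESeq2 (−1.18, adjusted p = 0.0429), beside 6.44% of all genes, and with limma voom (−1.13, adjusted p = 0.0372), beside 7.41%. ATF3 and KLF6 were the 2 of 9 genes without overlap, both lower, beside 12.7%. All 7 macrophage markers were also lower, 3 past both thresholds (CD14, CSF1R and CD163). Smooth muscle markers were lower in 7 of 7 and endothelial markers in 6 of 7, 3 of each at an unadjusted p under 0.05 and 0 past both thresholds. Of the 10 stromal markers, HOXA10, ESR1 and PGR were higher and VIM was lower past both edgeR thresholds. The part of these markers was not tested. JUN was at −0.47 (SE 0.205, edgeR, adjusted p = 0.159), and EGR1 at −0.01 (SE 0.236, edgeR, adjusted p = 0.989), with a sign that turned under limma voom (0.24).

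Averaged over NCG, the high-fiber against the low-fiber diets gave 0 of 9 genes past both thresholds, beside 0.0261% of all genes. At an unadjusted p under 0.05, 5 of 9 genes were lower, beside 10.2%. These were FOSB (−1.14, SE 0.285, edgeR, adjusted p = 0.0919), ATF3 (−0.80), EGR1 (−0.55), KLF6 (−0.52, SE 0.110, edgeR, adjusted p = 0.0678) and JUN (−0.37). DESeq2 passed FOSB (−1.16, adjusted p = 0.00582), beside 1.89% of all genes, and limma voom passed none, beside 1.97%. All 7 macrophage markers were lower on high fiber, each at an unadjusted p under 0.05 and 0 past both edgeR thresholds, with a median log2 fold change of −0.80. Of the 10 stromal markers, 7 were higher, 6 at that unadjusted level, and 3 were lower, 2 at that level, with 0 past both thresholds. The part of these markers was not tested. Averaged over fiber, NCG gave 0 of 9 past both thresholds by edgeR, DESeq2 and limma voom, beside 1.80%, 2.35% and 2.72% of all genes. At an unadjusted p under 0.05, EGR1 was higher with NCG (0.54, SE 0.168, edgeR, adjusted p = 0.0751), 1 of 9 genes, beside 13.2% of all genes that were higher and 23.6% in either direction.

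H + N against L + N gave 0 of 9 genes by edgeR, DESeq2 and limma voom, beside 0%, 0.0130% and 0%. IER2 was the 1 gene of 9 without overlap, beside 5.86% of all genes, and the 1 gene at an unadjusted p under 0.05, beside 4.68%. It measured 36.9, 36.4 and 33.0 CPM in L + N and 38.2, 46.5 and 48.4 CPM in H + N. The log2 fold change of IER2 was 0.32 (SE 0.143, edgeR, adjusted p = 0.910).

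The spread between libraries of a group differed widely among the 9 genes. FOS had a within-group SD of 0.90 on the log2 CPM scale, higher than 94.4% of all genes tested. DUSP1 had 0.60 (84.0% of genes), ATF3 0.59 (83.3%) and FOSB 0.52 (78.8%), and these 4 genes lay above the upper quartile of all genes, 0.47. JUNB had 0.33, EGR1 0.32 and JUN 0.27, near the median of all genes, 0.28. KLF6 with 0.20 was higher than 30.3% of all genes and IER2 with 0.17 higher than 21.8%. The median SD over the 9 genes was 0.33. For FOS it was 0.72 without H − N replicate 3 and at most 0.96 without any other library. These ranks take no account of the level of a gene. The biological coefficient of variation from edgeR was 0.349 for FOSB, below the trend of 0.368 for genes of its level. It was above the trend for FOS (0.511 against 0.222), ATF3 (0.367 against 0.217) and DUSP1 (0.350 against 0.194).

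**Figure D4:**
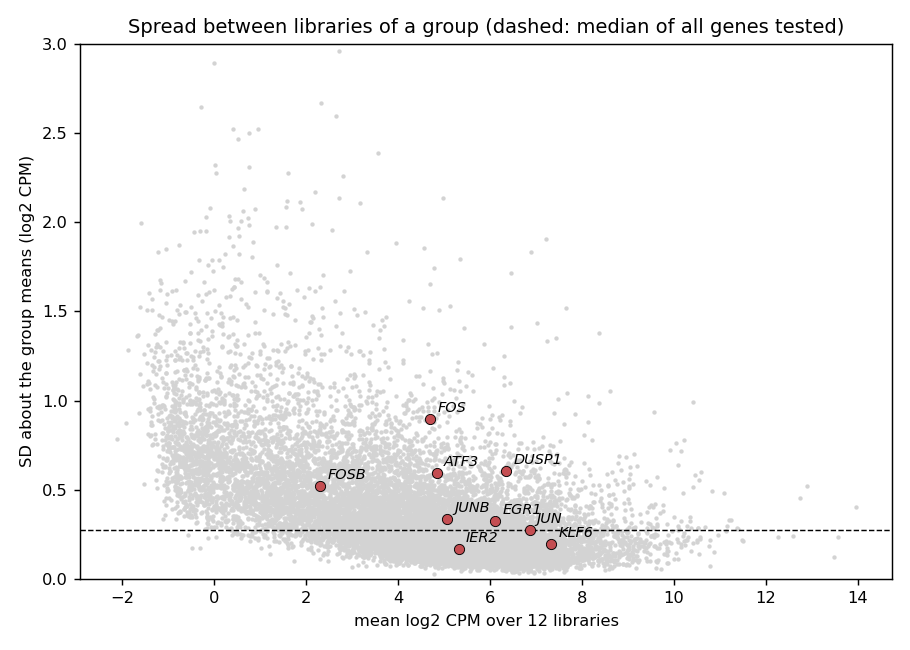
Within-group SD of log2 CPM (vertical axis) against mean log2 CPM over 12 libraries (horizontal axis) for every gene tested (gray) and the 9 immediate early genes (red, named), with a dashed line at the median of all genes, 0.28. FOS at 0.90, DUSP1 at 0.60 and ATF3 at 0.59 stand high for their level, while KLF6 and IER2 lie below the line.

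Differences between groups took up 82.2% of the variance of KLF6 on the log2 scale, 81.3% of FOSB and 77.0% of EGR1, against a median of 42.8% over all genes tested. In ATF3 the share was 59.3%, and in JUN 57.6%. IER2 (45.0%), JUNB (41.7%), DUSP1 (32.1%) and FOS (19.7%) varied mostly within groups. FOS and FOSB, which encode related AP-1 subunits, were therefore at opposite ends of this order.

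The group with the least spread was H + N for FOS, FOSB, ATF3 and DUSP1, and 19.5% of all genes tested had their lowest SD there. It was L + N for JUN, JUNB, KLF6 and IER2, beside 38.1% of all genes, and H − N for EGR1, beside 21.2%. FOS had a log2 SD of 0.20 in H + N against 0.78 in L − N, 1.08 in L + N and 1.18 in H − N. The median SD over the 9 genes was 0.20 in H + N, 0.34 in H − N, 0.34 in L + N and 0.43 in L − N, beside 0.26, 0.24, 0.18 and 0.24 for all genes.

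FOS was low in 4 libraries and high in 8. It measured 10.1 to 17.3 CPM in L − N replicate 3, L + N replicate 1 and H − N replicates 1 and 2, and 27.7 to 45.1 CPM in the other 8 libraries. DUSP1 was lowest in these same 4 libraries, at 35.7 to 65.0 CPM, against 96.9 to 123 CPM in the other 8. Every group but H + N thus held libraries of both kinds. Over the 12 libraries, the deviations of FOS and DUSP1 from their group means had a Pearson r of 0.96, and 0.95 to 0.98 when each library was left out. This is a description over libraries that share their depth and tissue composition.

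**Figure D5:**
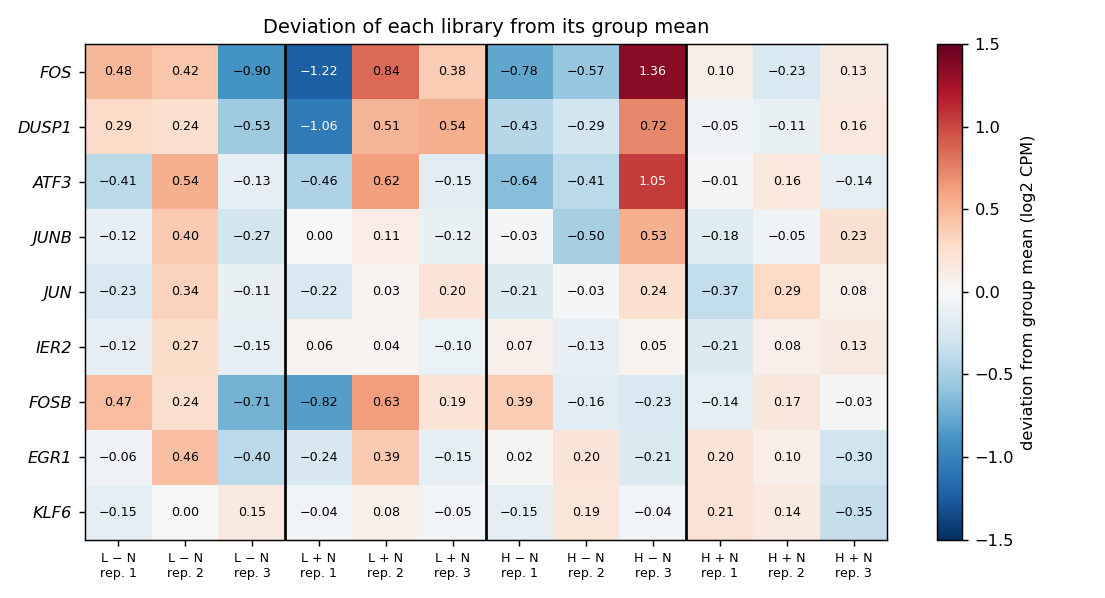
Deviation of each library (columns, ordered by group) from its group mean in log2 CPM for each gene (rows), red above and blue below. L + N replicate 1 is at −1.22 for FOS and −1.06 for DUSP1, and H − N replicate 3 is at 1.36 for FOS, 0.72 for DUSP1 and 1.05 for ATF3 but −0.23 for FOSB and −0.21 for EGR1.

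The deviations of the other genes followed FOS to differing degrees. Over the same 12 libraries, r with FOS was 0.77 for ATF3, 0.61 for JUNB, 0.53 for FOSB and 0.47 for JUN. It was 0.27 for EGR1, 0.16 for IER2 and −0.15 for KLF6. Among pairs without FOS, r was 0.76 for JUNB and IER2, 0.71 for JUNB and ATF3 and 0.60 for FOSB and EGR1. Of 36 pairs, 30 had r above 0 and 13 above 0.5, with a median of 0.28, or 0.19 without L − N replicate 2. KLF6 was set apart, with r from −0.47 to 0.40 with the other genes.

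H − N replicate 3 showed the division most clearly. Compared with the mean of H − N replicates 1 and 2, it held 4.13 times as much FOS, 2.98 times as much ATF3, 2.11 times as much DUSP1 and 1.71 times as much JUNB. JUN at 1.28, IER2 at 1.06 and KLF6 at 0.957 times differed little, and EGR1 at 0.798 and FOSB at 0.761 times were lower. It held 653 reads of FOS and 21 reads of FOSB, a ratio of 31.1 that was 2.99 to 7.68 in the other 11 libraries. This ratio was singled out after its values were seen. The same library had the highest summed level of the 12 for neutrophil (554 CPM), mast cell (740 CPM), epithelial (2345 CPM) and stromal markers (50174 CPM). The part of these markers was not tested.

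Other immediate early and delayed early genes were read from a list of 37 genes in the table, of which 35 were tested. In H − N against L − N, 26 were lower and 9 higher, with a median log2 fold change of −0.28, and 1 passed both thresholds, beside 2.91% of all genes. This was MAFF, a small basic leucine zipper factor without its own activation domain. MAFF measured 26.2, 34.9 and 40.2 CPM in L − N and 7.46, 8.88 and 10.8 CPM in H − N. Its groups were far apart, with a log2 fold change of −1.90 (SE 0.229, edgeR, adjusted p = 0.0118). It was also lower in L + N (−1.68, SE 0.226, edgeR, adjusted p = 0.00818) and in H + N (−1.60, SE 0.226, edgeR, adjusted p = 0.0136), where it was again the 1 gene of the list to pass. These 3 values share the L − N libraries. The H − N call of MAFF was lost without L − N replicate 3 (−1.75, edgeR, adjusted p = 0.0522) or H − N replicate 1 (−1.78, edgeR, adjusted p = 0.0529), and the H + N call without L − N replicate 3 (−1.45, edgeR, adjusted p = 0.0719) or H + N replicate 1 (−1.74, edgeR, adjusted p = 0.0524).

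In the interaction, 28 of the 35 were above 0, with a median of 0.42. At an unadjusted p under 0.05, 6 were above 0, beside 7.48% of all genes. Past the thresholds were 0 by edgeR, 2 by DESeq2 and 1 by limma voom, beside 0%, 1.20% and 0.873% of all genes. EGR2 and EGR3, paralogs of EGR1 that were picked out after their values were seen, also had their lowest mean in H − N. EGR3 averaged 4.83 ± 2.15 CPM in L − N, 2.41 ± 0.260 CPM in H − N and 7.50 ± 3.68 CPM in H + N (SD, n = 3 each). EGR2 averaged 6.27 ± 1.93, 5.24 ± 0.786 and 13.6 ± 7.25 CPM in the same groups. In H + N against H − N, the log2 fold change was 1.64 for EGR3 and 1.37 for EGR2 (edgeR, adjusted p = 0.451 for both). EGR2 was at 0.84 without H + N replicate 3 and at 0.97 by limma voom, and EGR3 was at 1.16 without H + N replicate 2. DESeq2 passed EGR3 (1.65, adjusted p = 0.0292).

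The kinases and transcription factors that switch on immediate early genes, among them SRF, ELK1, CREB1 and the MAP kinases, did not pass both thresholds in any comparison of groups or diets (0 of 22 tested by edgeR, DESeq2 and limma voom). These values are mRNA levels, and the activity of the proteins was not measured. In H − N against L − N, 14 of the 22 were lower, beside 46.5% of all genes, with a median log2 fold change of −0.09. At an unadjusted p under 0.05, 3 of the 22 were lower, beside 13.1% of all genes. In L + N against L − N, 10 of the 22 were lower and 2 higher at an unadjusted p under 0.05, with a median of −0.25, beside 13.7% of all genes that were lower. Averaged over fiber, 8 were lower and 2 higher with NCG at an unadjusted p under 0.05, beside 23.6% of all genes in either direction and 13.2% higher. In H − N against L − N, the 8 feedback inhibitors of ERK signaling (DUSP4, DUSP6 and the SPRY and SPRED genes) had 7 higher and 1 lower, 1 at an unadjusted p under 0.05, and none past both thresholds. The 10 factors that bind AU-rich elements or degrade mRNA had 7 higher and 3 lower, 2 at an unadjusted p under 0.05, and none past both thresholds. Heat shock chaperones, which answer to protein damage, had 10 of 14 higher, 1 at an unadjusted p under 0.05, and 0 past both thresholds. DESeq2 and limma voom also passed 0 genes of these 3 lists.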

How the data were processed

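The authors deposited 1 table of the whole series with a raw read count and an FPKM value per gene and library. Per the submitters' processing notes, fastp 0.22.0, HISAT2 2.1.0, HTSeq 0.9.1 and Sscrofa11.1 were used. The counting strand is not given in the sources used here. The deposited FPKM values differed from a recalculation out of count, gene length and library total by at most 1.91e-05 percent, and were used only to compare levels between genes.

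Groups were read from the codes in the library titles. Genes were matched by name, and coordinates came from the table and equaled those of the pig RefSeq table. Counts were analysed in R 4.3.3. In edgeR 4.0.16, filterByExpr dropped genes of low count, TMM gave the scaling factors, and 1 quasi-likelihood fit over the 12 libraries estimated a mean for each group. The p-values were adjusted by Benjamini-Hochberg over 15351 genes. A gene passed at an adjusted p under 0.05 and an absolute log2 fold change above 1, except that the test over all 4 groups used the adjusted p alone. CPM used the TMM factors, and log2 CPM a prior count of 2. Within-group SDs and correlations of deviations had 8 residual degrees of freedom.

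Alternatives were DESeq2 1.42.0, limma 3.58.1 voom with quality weights, RLE size factors, no filter, a prior count of 0.5, the replicate number as a block, and each library left out in turn. The scripts were tested on simulated data. The genes and lists were chosen with earlier results of these data known. All members were named, and of each other gene list, though not of the cell type marker lists, up to 6 genes that passed both thresholds in edgeR. No sequence is printed.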

Additional observations from a re-analysis of the deposited data

How the results depend on the processing

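Of the log2 fold changes reported, those of RLE size factors and of no filter on low counts kept their direction and their side of the thresholds for all 58, and DESeq2 kept every direction and passed 9 more. By DESeq2 the number of genes past the thresholds was 290 for high against low fiber, 184 for the interaction, 913 for H − N, 988 for H + N against L − N, 25 for H + N against H − N, 2 for H + N against L + N and 3365 over all groups, with 1, 2, 3, 1, 2, 0 and 5 of the 9 immediate early genes. By limma voom it was 302 for fiber, 418 for NCG, 134 for the interaction, 1368 for L + N, 1196 for H − N, 1137 for H + N and 4106 over all groups, with 0, 0, 0, 1, 2, 1 and 5 of the 9. By edgeR these numbers were 4, 276, 0, 613, 446, 549 and 1068. The cause of these differences was not tested.

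The deviations of same-numbered libraries had r of −0.32 to 0.28, above 0.1 in 3 of 18 pairs. The labels do not say what the replicate numbers share. These correlations cannot decide it, since each deviation is taken from a mean of only 3 libraries. With the replicate number as a block, 254 genes passed for H − N, 1 for fiber and 477 over all groups. In this fit FOSB was at −2.48 (edgeR, adjusted p = 0.0365) and EGR1 at −1.12 (edgeR, adjusted p = 0.0284) in H − N against L − N, whereas the call of ADM in that comparison was lost (−1.61, edgeR, adjusted p = 0.0552).

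Over the fits that each lacked 1 library, the number of genes ran from 0 to 331 for fiber, 157 to 340 for NCG, 0 to 346 for the interaction, 143 to 911 for L + N, 0 to 1120 for H − N, 1 to 948 for H + N against L − N and 4 to 1732 over all groups. Of the 9 genes, 0 to 4 passed for H − N, 0 to 1 for H + N against L − N and 0 to 3 over all groups, while the median within-group SD stayed between 0.31 and 0.36. The high end came without L − N replicate 1 for all these gene counts but that of NCG, and the low end of 0 for H − N without H − N replicate 1.

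Signs turned for 6 of the log2 fold changes reported. EGR1 in H + N against L − N was 0.24 by limma voom, 0.03 with the block and −0.19 to 0.26 with libraries left out. EGR1 in L + N against L − N was 0.06 by limma voom and −0.28 to 0.20 with libraries left out. IER2 in H − N against L − N ran from −0.22 to 0.00, and JUNB in H + N against H − N from −0.02 to 0.50. In L + N against L − N, FOS ran from −0.72 to 0.14 and DUSP1 from −0.44 to 0.16. Depth was lowest for FOSB, whose lowest library held 21 reads.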

Other observations

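Hypoxia response genes, another group whose transcripts answer quickly to the state of a tissue, were read from a list of 17 genes. ADM and VEGFA moved against L − N in opposite directions. ADM, which encodes the vasodilator peptide adrenomedullin, averaged 38.9 ± 18.8 CPM in L − N, 10.2 ± 1.03 CPM in L + N, 12.8 ± 6.46 CPM in H − N and 11.5 ± 3.30 CPM in H + N (SD, n = 3 each). The log2 fold change of ADM against L − N was −1.93 in L + N (edgeR, adjusted p = 0.0183), −1.60 in H − N (edgeR, adjusted p = 0.0476) and −1.75 in H + N (edgeR, adjusted p = 0.0308). VEGFA, the main angiogenic growth factor, averaged 48.4 ± 5.57, 100.0 ± 21.1, 116 ± 11.3 and 146 ± 72.1 CPM in the same order. It was higher in H − N (1.26, edgeR, adjusted p = 0.0431) and H + N (1.59, edgeR, adjusted p = 0.0214). In L + N VEGFA was at 1.05 (edgeR, adjusted p = 0.0559) and passed with DESeq2 and limma voom. All these values share the L − N libraries. The H − N call of ADM was lost with the replicate number as a block (−1.61, edgeR, adjusted p = 0.0552). Each edgeR call was lost when any of several single libraries was left out, L − N replicates 2 and 3 among them, with ADM between −2.25 and −1.21 and VEGFA between 1.18 and 1.90 in the comparisons that passed. The list as a whole had 13 of 17 genes lower in H − N, with a median log2 fold change of −0.34.

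Outside the immediate early genes, the genes whose deviations from the group means followed the mean deviation of the 9 genes most closely over the 12 libraries were FCRL6 (r = 0.914), LOC110258195 (0.912), GLRX2 (0.892), LCN15 (0.889), POU2F3 (0.885), KIF21A (0.882), PARP3 (0.875), HOMER2 (0.874), GOLGB1 (0.870) and OSM (0.866). In total 35 of 15342 genes had r above 0.8. No test was made, and with 8 residual degrees of freedom such values can arise by chance among so many genes. The points share library depth and tissue composition, and several of these genes were low, FCRL6 at a mean of 0.732 CPM and OSM, a cytokine gene, at 1.04 CPM.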
